A study of Mus musculus with 42 samples.

Results

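The proximal tubule reabsorbs most of what the glomerulus filters, and after injury its cells switch from transport to a repair state marked by Havcr1, Vcam1 and Sox9. Ligation of a ureter blocks urine flow from that kidney and is a standard model of tubule injury with fibrosis. Translating ribosome affinity purification tags the ribosomes of chosen cells with GFP, so that beads coated with anti-GFP antibodies pull down the RNA those cells are translating, while whole-tissue RNA mixes tubule, stroma, vessels and infiltrating leukocytes. The comparison described here asks for which genes the response of the bound proximal tubule RNA to 10 days of obstruction differed from the response of the total kidney RNA.

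RNA sequencing of mouse renal cortex gave 42 libraries in the whole series, and 28 of them enter the comparison. The fraction labelled PT is RNA bound to the anti-GFP beads, and the fraction labelled Total is total kidney RNA. Each was taken from kidneys on day 10 of unilateral obstruction (D10UUO) and from contralateral kidneys (CLK), the control. Mice of both sexes were 12 weeks old, and the 8 groups were made of 4 libraries each in males and 3 in females, so that each combination of fraction and state, called a side here, held 7. The labels do not give the promoter that drives the GFP tag, the day on which contralateral kidneys were taken, or whether Total is the RNA left unbound by the beads. A contralateral kidney is not a kidney of an unoperated mouse, and both states share that operation. The labels do not say that libraries of a group came from separate mice, so p-values measure the spread between these libraries.

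The value described is an interaction: the log2 change from contralateral to day 10 in PT minus the same change in Total, averaged over the sexes at equal weight. An interaction above 0, called higher, means that a gene rose more or fell less in PT than in Total, and one below 0, called lower, the reverse. Levels are counts per M counts (CPM), given as lowest, median and highest of the 7 libraries of a side, and they are not divided by gene length. Genes were called at 2-fold or more with an adjusted p under 0.05 (quasi-likelihood test of edgeR, adjusted after Benjamini and Hochberg over all genes tested); "rose" and "fell" are used only of such genes. Values after ± are standard errors on the log2 scale. Because these are bulk samples, fewer cells of a type and less RNA per cell cannot be told apart, and a change in Total can come from tubule cells or from any other cell of the cortex.

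The libraries held 9.31 to 43.6 M counts, with a median of 18.6 M. Fraction labels were checked on defining genes. In contralateral kidneys Slc34a1, the phosphate carrier of the early proximal tubule, had 3150, 3840 and 4160 CPM in PT against 1550, 1810 and 2200 in Total, without overlap. Slc5a2 was also higher in PT without overlap (medians 457 and 219). Slc22a6 overlapped (1040 and 714), as did Lrp2, whose median was lower in PT (293 and 482). Of 43 proximal tubule solute carriers 4 were called higher and 2 lower in PT, at a median difference of 0.656 (log2). Of all genes tested 1.67% were called higher and 21.9% lower. Umod of the thick ascending limb (15.3, 37.7 and 47.1 against 271, 546 and 989), Kdr of endothelium (0.837, 2.23 and 2.47 against 24.1, 30.9 and 36.9) and Col1a1 of fibroblasts (0.558, 0.979 and 1.62 against 7.46, 13.6 and 19.9) were lower in PT without overlap, and none of them was absent from it. The macrophage complement gene C1qa had 0.192, 0.67 and 1.12 against 5.2, 6.9 and 12.7 CPM. On the first component of the deviations from the group means, which held 18.2% of their variance, 6 of the 28 libraries lay under -20. This cut was set on the negative side alone. On the positive side male D10UUO PT 4 lay at 43, male D10UUO PT 2 at 31.9 and female D10UUO PT 1 at 29.3. These were farther from 0 than male D10UUO PT 1, among the 6, at -23.5. The 6, called the libraries that stand apart, are thus an end of a spread that ran both ways. They were male CLK PT 2, female CLK PT 3, male D10UUO PT 1 and 3, female D10UUO PT 2 and male D10UUO Total 3, so no contralateral Total library was among them and no interaction can be had within them. Counts of called genes and of list members that move by over 1.5 times without them are given both ways.

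The interaction was called for 801 of 16679 genes tested, 4.8%: 646 genes were higher (3.87%) and 155 lower (0.929%). Without the 6 libraries that stand apart, 740 were called, 621 higher and 119 lower. In the same fit 5339 genes (32%) were called between day 10 and contralateral in PT, 3623 up (21.7%) and 1716 down (10.3%), and 5630 (33.8%) in Total, 3411 up (20.5%) and 2219 down (13.3%). In both fractions 2646 genes rose and 1425 fell, while 10 fell in PT and rose in Total and 8 did the opposite. Over all genes tested, the median change was 0.16 in PT and 0.0799 in Total and the median interaction 0.164, with 11008 genes above 0 (log2).

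**Figure D1:**
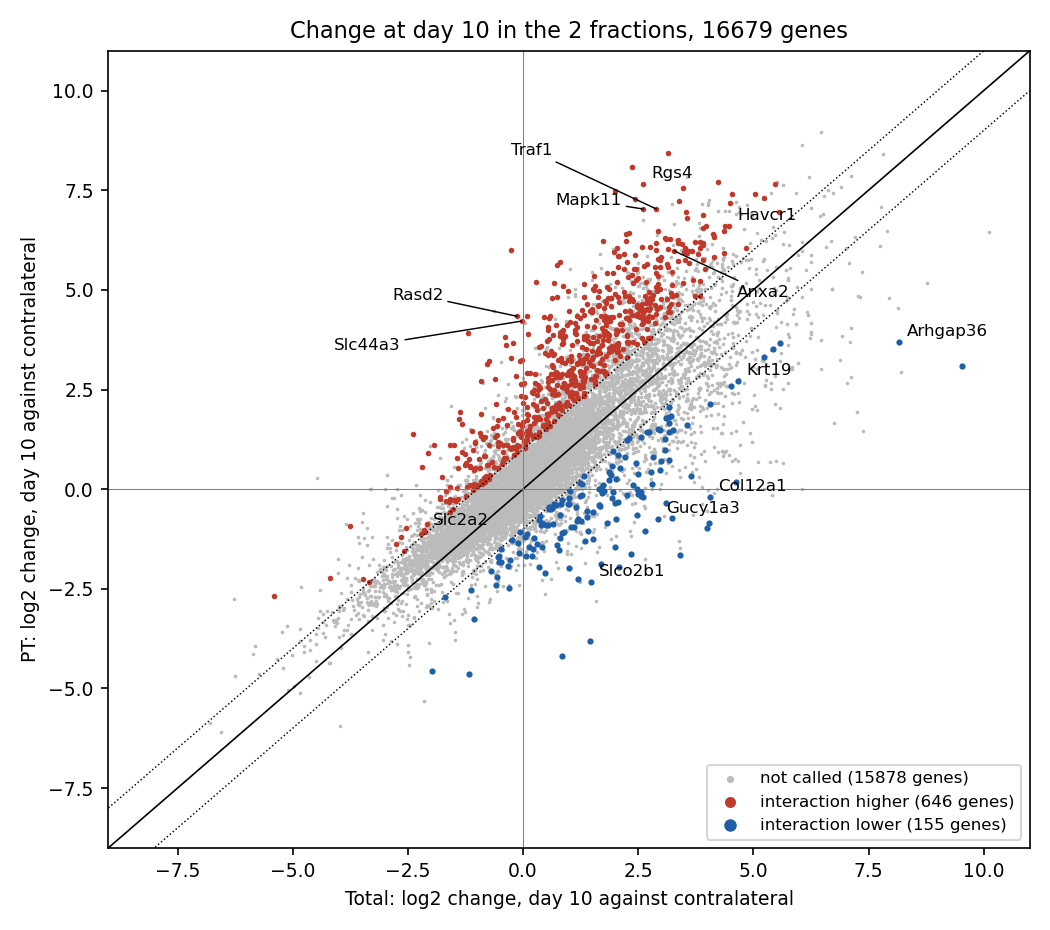
Log2 change from contralateral to day 10 in Total (horizontal) and in PT (vertical) for each of the 16679 genes tested. The solid line marks equal change and the dotted lines a 2-fold difference; red points are the 646 genes with a higher interaction and blue points the 155 with a lower one.

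Higher interactions were mostly larger rises in PT. Of the 646 genes, 355 rose in both fractions, 206 rose in PT alone, 41 fell in Total alone, 10 fell in both and 8 rose in PT while they fell in Total; the other 26 were called in neither. Their median change was 3.38 in PT and 1.17 in Total (log2). Over all genes tested 3926 (23.5%) differed between PT and Total in contralateral kidneys and 5031 (30.2%) at day 10. PT was called lower than Total for 21.9% of all genes tested in each state. In contralateral kidneys, 549 of the 646 were called lower in PT than in Total, with a median difference of -2.72 (log2), and 355 had a mean under 1 CPM in PT. At day 10 the median difference was -0.484, with 224 called lower and 64 called higher in PT, where 8.25% of all genes tested were higher. The difference between PT and Total went up for each of these genes by definition, since its change is the interaction. These medians describe the chosen genes and are no separate result.

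Because most of these genes started low in PT, the scale of the comparison matters. On linear CPM, 424 of the 646 gained more in PT than in Total and 222 gained more in Total. On the log2(RPKM + 1) scale, where adding 1 shrinks the change of low genes, limma called 221 genes higher and 629 lower, so the excess of higher genes held for ratios and not on that scale. With 0.1 added in place of 1, 36.3% of 1405 called genes were higher, against 80.6% of the 801 genes in edgeR's fit, 71.3% in DESeq2 and 67.2% in limma-voom.

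Lower interactions had another form. Of the 155 genes, 64 rose in Total alone, 24 rose in both fractions, 35 fell in PT alone, 10 fell in PT and rose in Total, 4 fell in both and 18 were called in neither. Their median change was -0.442 in PT and 1.52 in Total. In contralateral kidneys 40 of them were called lower in PT than in Total, and at day 10 137 of them were. Of all genes tested 21.9% were, in each state. The median difference between the fractions went from -0.324 to -2.44 (log2), downward by the definition of a lower interaction. On linear CPM 154 of the 155 gained less or lost more in PT.

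**Figure D2:**
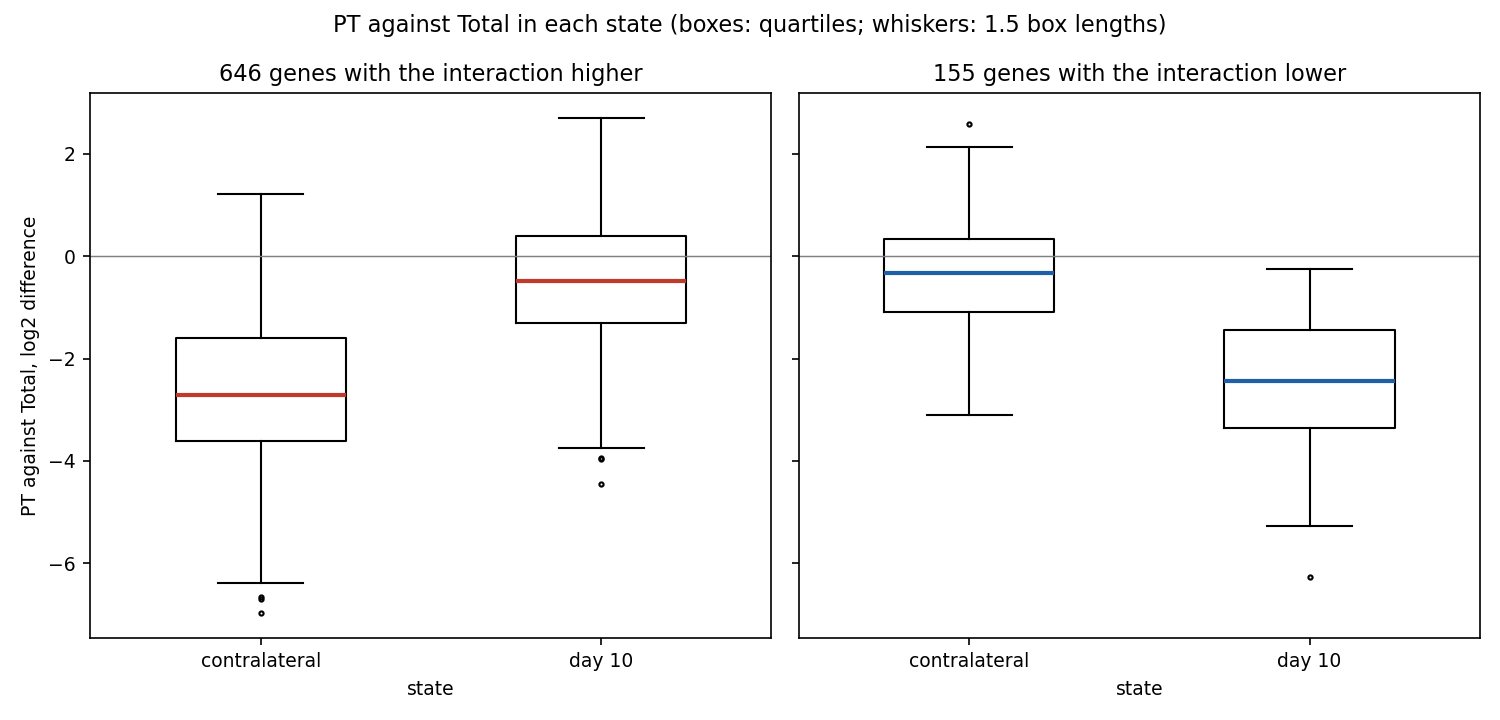
Log2 difference between PT and Total in contralateral and day 10 kidneys, for the 646 genes with a higher interaction (left) and the 155 with a lower one (right); boxes span the quartiles and points lie beyond 1.5 box lengths. The median of the first set went from -2.72 to -0.484 and that of the second from -0.324 to -2.44. Both directions follow from the choice of genes.

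Among the genes of tubule injury and repair, 19 of 40 tested had a higher and 1 a lower interaction, beside 3.87% and 0.929% of all genes. Their median was 1.15, beside 0.164 over all genes. Without the 6 libraries that stand apart, 16 were higher and 1 lower. The list rose in both fractions, 35 of 40 genes in each, with a median of 4.68 in PT and 3.17 in Total. Havcr1, kidney injury molecule 1, went from 8.49, 11.2 and 17.1 CPM to 581, 1280 and 1470 in PT, and from 8.55, 17.5 and 29.3 to 137, 451 and 604 in Total. The sides did not overlap within either fraction, and the contralateral levels of PT and Total did. Its interaction was 2.13 ± 0.35 (edgeR adjusted p = 0.0002045), 1.33 in males and 2.93 in females.

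Anxa2, a calcium-dependent membrane-binding annexin, showed a change of order between the fractions. It went from 8.07, 14.2 and 20.7 to 650, 918 and 1140 CPM in PT and from 33.3, 44.7 and 53.1 to 274, 440 and 526 in Total. Every PT library lay below every Total library in contralateral kidneys and above every one at day 10 (interaction 2.70 ± 0.27, edgeR adjusted p = 1.212e-07). Vcam1, the leukocyte adhesion molecule of injured tubule, reached 317, 510 and 750 CPM in PT and 124, 160 and 228 in Total at day 10 without overlap, from levels that overlapped in contralateral kidneys (2.37 ± 0.34). Sox9, a transcription factor of tubule repair, went from a median of 0.383 to 39.3 CPM in PT and from 1.55 to 27.2 in Total (2.98 ± 0.59). Cdh6, a cadherin of the developing proximal tubule, went from 0.093 to 13 in PT and from 1.17 to 6.1 in Total (3.11 ± 0.59).

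Runx1, a transcription factor, went from 0.103, 0.192 and 0.356 to 15.1, 32.1 and 57.3 CPM in PT and from 1.47, 1.71 and 3.31 to 33.1, 40.2 and 75.4 in Total. Its PT level stayed under that of Total at the median of both states, and the interaction of 2.88 ± 0.34 turned to -0.334 on the log2(RPKM + 1) scale. The other higher genes of the list included the annexin Anxa3 (2.38), the tight junction gene Cldn4 (2.20), the hyaluronan receptor Cd44 (2.09), the urokinase receptor Plaur (1.90), the intermediate filament Vim (1.82) and the chaperone Clu (1.45). Steap4 and Anxa8 were called as well, but had 1 and 3 counts over the 7 contralateral PT libraries, so no fold is given for them. Krt19, a keratin of distal and collecting duct epithelium, was the lower gene: it went from 0.511, 0.916 and 3.27 to 3.38, 9.28 and 15.4 CPM in PT and from 0.679, 1.85 and 3.2 to 23.7, 41 and 62.1 in Total (-1.95 ± 0.43). The secreted injury marker Lcn2 had a value of the same sign that missed the threshold (-1.65 ± 0.55, edgeR adjusted p = 0.07896), and osteopontin, Spp1, one of the other sign (1.09 ± 0.36, edgeR adjusted p = 0.07585). Both values were called under some alternatives: Lcn2 under 6 of 19 settings and with 3 single libraries left out in turn, and Spp1 under 8 of 19 settings and with 2, the block by kidney among the settings for both (-1.81 and 1.1). The keratin Krt20 rose in both fractions, to medians of 153 CPM in PT and 68.4 in Total, with an interaction that was not called (0.96 ± 0.71, edgeR adjusted p = 0.5438). The cell cycle inhibitor Cdkn1a also rose in both and was not called (0.29 ± 0.46, edgeR adjusted p = 0.8399).

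**Figure D3:**
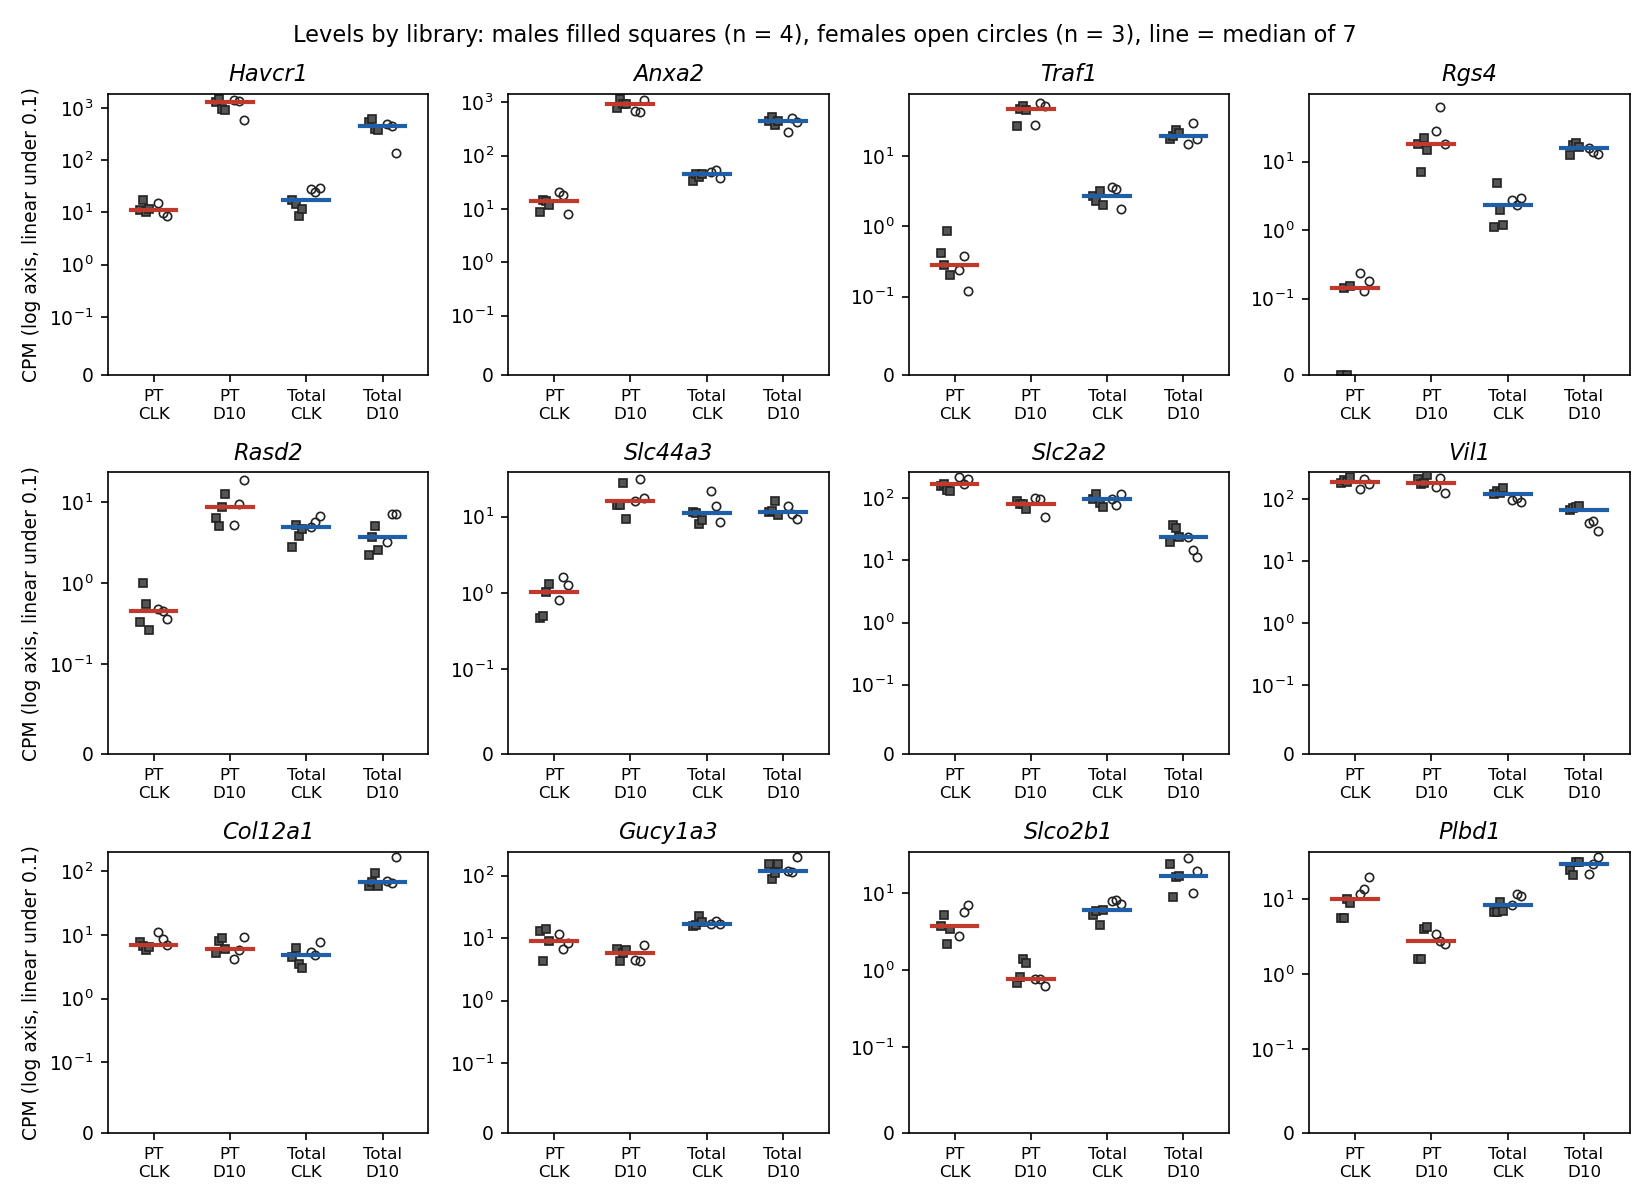
CPM of 12 genes in each library by fraction and state, on a log axis that is linear under 0.1; filled squares are males (n = 4), open circles females (n = 3), and lines mark the median of 7. Anxa2 and Traf1 passed from below to above their Total level, Rasd2 and Slc44a3 kept overlapping levels in Total, and Col12a1 and Gucy1a3 rose in Total alone.

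The 12 largest higher interactions are those of genes with at least 5 CPM in a group and the same direction at 2-fold or more in each sex, which chose them. Rgs4, which speeds the shutdown of G protein signals, went from 0, 0.141 and 0.239 to 7.01, 18.1 and 62.9 CPM in PT and from 1.12, 2.34 and 4.91 to 12.5, 15.8 and 18.7 in Total. The fractions were apart in contralateral kidneys and overlapped at day 10, and the interaction was 5.05 ± 0.59 (edgeR adjusted p = 1.634e-06). Mapk11, the p38 beta kinase, went from 0, 0.093 and 0.319 to 11.8, 16.2 and 23 in PT and from 0.802, 1.31 and 2.28 to 8.02, 8.72 and 9.89 in Total, with PT below Total in one state and above it in the other (4.42 ± 0.43).

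Several of these genes had no called change in Total. Rasd2, a small GTPase, went from 0.258, 0.447 and 0.987 to 5.09, 8.71 and 18.6 CPM in PT, while Total held 2.79, 4.83 and 6.61 in contralateral kidneys and 2.21, 3.65 and 7.11 at day 10 (4.46 ± 0.45, edgeR adjusted p = 1.371e-07). Slc44a3, a choline transporter-like protein, went from 0.465, 1.03 and 1.6 to 9.2, 16.1 and 30.8 in PT, with 8.1, 11.2 and 22 against 9.43, 11.6 and 16.3 in Total (4.24 ± 0.38). Sfxn3, a mitochondrial serine carrier, went from a median of 1.76 to 36 CPM in PT and had medians of 24.4 and 35 in Total (3.74 ± 0.36). For each of these 3 genes the PT sides did not overlap and the Total sides did. The magnesium channel Trpm6 (3.90 ± 0.37), Fam189a2 (3.88 ± 0.53), the lipid phosphatase-related Plppr4 (3.63 ± 0.47) and the arginine deiminase Padi2 (3.55 ± 0.72) rose in PT as well, with Total changes between -0.90 and 0.45 that stayed under the 2-fold minimum. Of the genes without a called change in Total, Sfxn3 (0.56), Trpm6 (-0.78) and Plppr4 (-0.90) still had adjusted p-values under 0.05 there by edgeR's test. For Adamts5, an aggrecan-cleaving protease, both fractions rose: from 0.279, 0.772 and 1.03 to 15.5, 32.2 and 87.6 CPM in PT and from 5.34, 11.6 and 12.5 to 33.6, 36.6 and 64.1 in Total (3.69 ± 0.34). Arc, an immediate early gene known from neurons, also rose in both (3.79 ± 0.58).

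Signalling through NF-kB, the transcription factor family that answers tumour necrosis factor and related signals, held 7 higher genes of 25 tested and none lower. Its median was 0.837, and of all genes 3.87% were higher and 0.929% lower. Without the 6 libraries that stand apart the list held 8. Traf1, an adaptor of tumour necrosis factor receptors, went from 0.119, 0.282 and 0.87 to 26.7, 47.3 and 57.3 CPM in PT and from 1.8, 2.74 and 3.59 to 14.8, 19.5 and 29.4 in Total. PT lay under Total without overlap in contralateral kidneys, and at day 10 the ranges overlapped with PT higher (4.13 ± 0.38, edgeR adjusted p = 3.567e-08). Tnfaip2 went from 1.13, 2.06 and 3.21 to 5.23, 15.4 and 16.7 in PT and was not called in Total, with 26.3, 35.4 and 47.7 against 27.7, 39.7 and 51.9 (2.25 ± 0.30). The costimulatory receptor Cd40 (2.78 ± 0.48) and the receptor Tnfrsf1b (2.05 ± 0.56) rose in both fractions. For both, the log2(RPKM + 1) scale gave values under 0, and both stood under 1 CPM in every contralateral PT library. Birc3 (1.79), Nfkbiz (1.44) and Relb (1.30) completed the list.

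Promoters of the list are shown because it is named for 1 transcription factor family; 7 of its 25 genes were called. RefSeq windows of 250 bases before the transcription start (build GRCm38.p6) were searched on both strands for GGGNNNTTCC, a form of the NF-kB site, whose reverse is GGAANNNCCC. Of 32851 windows of that length 4.65% held a match. Windows were found for 21 of the 25 genes: 0 of 4 genes with a higher interaction and 7 of 17 without a call held it. The window of Traf1 (chr2:34961773-34962022, minus strand) held no match, and that of the inhibitor Nfkbia (chr12:55492648-55492897, minus strand), whose interaction of 0.84 was not called, held 1, in capitals below, starting 29 bases before the start site. A missing match says only that these letters are not in this window.
Traf1: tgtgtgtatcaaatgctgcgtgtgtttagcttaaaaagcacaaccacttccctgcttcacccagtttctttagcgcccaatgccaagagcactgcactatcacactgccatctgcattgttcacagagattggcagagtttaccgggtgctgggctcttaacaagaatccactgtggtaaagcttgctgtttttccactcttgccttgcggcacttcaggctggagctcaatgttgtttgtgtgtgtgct
Nfkbia: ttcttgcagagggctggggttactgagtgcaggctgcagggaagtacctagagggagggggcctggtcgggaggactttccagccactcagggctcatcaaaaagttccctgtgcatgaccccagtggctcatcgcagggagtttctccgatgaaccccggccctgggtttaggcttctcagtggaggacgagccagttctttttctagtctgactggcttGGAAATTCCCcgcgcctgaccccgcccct

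The interferon response list had 10 higher genes of 32 and none lower (median 0.819), beside 3.87% and 0.929% of all genes. Without the 6 libraries that stand apart it had 5. Gbp2, an interferon-induced GTPase, went from 0.372, 1.07 and 3.4 to 30.8, 86.6 and 136 CPM in PT and from 2.07, 2.92 and 8.36 to 21.4, 33.4 and 71.9 in Total (2.89 ± 0.63, edgeR adjusted p = 0.00523). Xaf1, which binds an apoptosis inhibitor, went from medians of 0.639 to 12.1 in PT and from 6.55 to 23.6 in Total (2.40 ± 0.36). The immunoproteasome subunit Psmb8 (2.41 ± 0.63) rose in both as well; without female CLK PT 3 or female D10UUO PT 3 its values were 2.29 and 2.12 and the call was lost. Oasl2 (1.99), Isg15 (1.62), Psmb9 (1.61), Rsad2 (1.51), Ifit2 (1.48) and the peptide transporter Tap1 (1.23) were also higher. Another GTPase of the family, Gbp3, went from 0.837, 3.45 and 16.9 to 38.2, 87.4 and 212 CPM in PT and from 4.3, 12.9 and 71.6 to 36.1, 57.6 and 129 in Total (2.32 ± 0.68, edgeR adjusted p = 0.04532). The calls of 4 of these genes stood close to the threshold: leaving out any 1 of 19 libraries ended that of Gbp3 (1.95 to 2.39), any of 11 that of Isg15 (1.32 to 1.63), any of 18 that of Psmb9 (1.43 to 1.68) and any of 21 that of Tap1 (1.08 to 1.33). In class II antigen presentation, the invariant chain Cd74 was the called gene of 9 tested, from 49.8, 71.7 and 195 to 1810, 2610 and 5630 CPM in PT and from 187, 253 and 316 to 2450, 3360 and 4400 in Total (1.54 ± 0.39), and its day 10 levels overlapped between the fractions; without the 6 libraries 2 of the 9 were higher.

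Of the complement and acute phase genes, 4 of 21 were higher and none lower (median 0.818), beside 3.87% and 0.929% of all genes. Cp, ceruloplasmin, went from 3, 4.07 and 10.3 to 219, 319 and 703 CPM in PT and from 12.6, 17.7 and 32.9 to 211, 265 and 542 in Total, so that fractions apart in contralateral kidneys overlapped at day 10 (2.18 ± 0.35). C3, the central complement component, went from a median of 7.97 to 474 in PT and from 8.99 to 259 in Total (1.23 ± 0.32); without female CLK Total 3 the value was 0.99 and not called. The protease C1s1 (3.29 ± 0.47) and the endotoxin-binding Lbp (2.34 ± 0.42) were under 1 CPM in each contralateral PT library, and both turned sign on the log2(RPKM + 1) scale (-0.254 and -0.367).

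Immediate early genes, which respond to signals without new protein synthesis, held 7 higher genes of 24 and none lower, at a median of 0.451. Of all genes 3.87% were higher and 0.929% lower. Ier3 went from 4.71, 5.76 and 12 to 33, 51.6 and 108 CPM in PT, while Total stayed at 36.1, 67.4 and 125 against 32.7, 73.2 and 122 (3.27 ± 0.32, edgeR adjusted p = 6.976e-08). Its PT libraries were all below Total in contralateral kidneys and within the range of Total at day 10. The transcription factors Klf4 (3.50 ± 0.50), Klf2 (3.06 ± 0.52) and Egr1 (2.21 ± 0.45) and the antiproliferative Btg2 (1.97 ± 0.34) rose in both fractions, more so in PT. Fos (1.74) and Maff (1.65) completed the list. In the ATF4 and unfolded protein response list 3 of 25 were higher (median 0.149), beside 3.87% of all genes. Among them were asparagine synthetase, Asns (1.59 ± 0.32), and the mitochondrial folate enzyme Mthfd2 (1.49 ± 0.37). The third was the pseudokinase Trib3 (1.90 ± 0.57, edgeR adjusted p = 0.04305), whose Total sides overlapped and whose call was lost, at 1.64 to 1.91, without any 1 of 19 libraries.

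Genes that define the working proximal tubule fell in both fractions, and the interaction of most of them stayed under the 2-fold minimum. Of 43 proximal tubule solute carriers 36 fell in PT and 39 in Total, with medians of -1.5 and -2.14. An interaction above 0 was found for 41 of the 43, beside 11008 of all 16679 genes. Of the 43, 1, Slc2a2, was called (median 0.605), beside 3.87% of all genes called higher. Without the 6 libraries that stand apart, 6 of the 43 were called higher, at a median of 0.743. The summed level of the carriers in PT was 171% of that in Total in contralateral kidneys and 269% at day 10. Slc2a2, the basolateral glucose exit carrier, went from 129, 168 and 224 to 50.3, 82.3 and 101 CPM in PT and from 72.3, 96 and 117 to 11.3, 23.7 and 36.9 in Total, with the sides apart in both fractions and the fractions apart in both states (1.07 ± 0.26, edgeR adjusted p = 0.008879). For Slc34a1 the interaction was 0.89 ± 0.30 (edgeR adjusted p = 0.08454) and for the endocytic receptor Lrp2 0.72 ± 0.33 (edgeR adjusted p = 0.2306). The glucose carrier Slc5a2 (0.78 ± 0.33, edgeR adjusted p = 0.2022) and the organic anion carrier Slc22a6 (0.90 ± 0.34, edgeR adjusted p = 0.1307) were not called either. Of 15 genes listed as markers of the S3 segment, 0 were called higher in PT than in Total in contralateral kidneys and 6 lower. Of all genes tested 1.67% and 21.9% were. In the interaction Bcat1, a branched-chain amino acid transaminase, was the called gene of the 15 (median 0.548). Its contralateral PT level was lower than that of Total without overlap (-4.78, log2). It went from 0.211, 0.598 and 2.09 to 5.67, 12.4 and 43.5 CPM in PT, while Total ranged from 3.44 to 104 and from 16.5 to 139 (3.13 ± 0.85, edgeR adjusted p = 0.0274). Its call was lost without the 6 libraries, where none of the list was called, and without female CLK PT 2 or 3, female CLK Total 2, female D10UUO PT 2 or female D10UUO Total 3, at 2.58 to 3.13.

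Of the brush border and endocytosis genes 2 of 27 were higher (median 0.483), beside 3.87% of all genes. In any list, 1 or 2 calls are not read as a response of that list. Vil1, villin of the microvillus core, held its level in PT (148, 192 and 225 against 128, 185 and 243 CPM) and fell in Total (89, 122 and 149 against 30.8, 67.3 and 78.7), with an interaction of 1.06 ± 0.18 (edgeR adjusted p = 0.0002454). The phosphatase Alpl fell in both (1.07 ± 0.28). Nr1h4, the bile acid receptor, was the called gene of 18 proximal tubule transcription factors (median 0.619): its change in PT was under 2-fold (-0.56), with 166, 211 and 334 against 105, 153 and 237 CPM, and fell in Total from 97.7, 140 and 186 to 25.3, 49.6 and 71.4 (1.03 ± 0.19). The 4 calls lie close to the 2-fold minimum. Leaving out single libraries took values to 0.966 to 0.999 for Slc2a2 (without female CLK Total 3, female D10UUO PT 1, female D10UUO Total 3 or male D10UUO Total 1), 0.936 to 0.978 for Alpl (female CLK Total 1, female D10UUO PT 2, female D10UUO Total 3 or male D10UUO PT 1), 0.949 to 0.989 for Vil1 (female D10UUO PT 2 or female D10UUO Total 3) and 0.97 to 0.998 for Nr1h4 (any 1 of 9 libraries), each under 2-fold.

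Metabolic and housekeeping lists gave no call in the interaction: gluconeogenesis and proximal tubule metabolism (0 of 32, median 0.742), fatty acid oxidation (0 of 36, 0.508), the nuclear-encoded respiratory chain (0 of 40, 0.167), mitochondrially encoded genes (0 of 10, 0.0561), antioxidant and glutathione genes (0 of 26, 0.301), cytosolic ribosomal proteins (0 of 46, -0.0117) and the cell cycle (0 of 35, 0.152). Without the 6 libraries that stand apart, 2 of the 32 gluconeogenesis and metabolism genes were higher and the other 6 of these lists still had no call. Of the 32 genes 26 fell in PT and 29 in Total, and of the 46 ribosomal protein genes 2 rose in PT and 1 in Total. Values under 2-fold could not be called by construction, and in simulated counts of this design the test called 17% of planted 2-fold and 64% of planted 4-fold interactions. The simulated libraries were independent, with each gene at 1 level per sex before planting. These shares need not hold for genes near 0 in contralateral PT. The p53 and cell cycle arrest list held 1 higher gene of 23, Btg2, and the S1 segment (0 of 10) and neutrophil markers (0 of 10) held none; leaving out the 6 libraries gave 2, 1 and 0. A list without calls is therefore not shown to respond alike in the fractions.

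**Figure D4:**
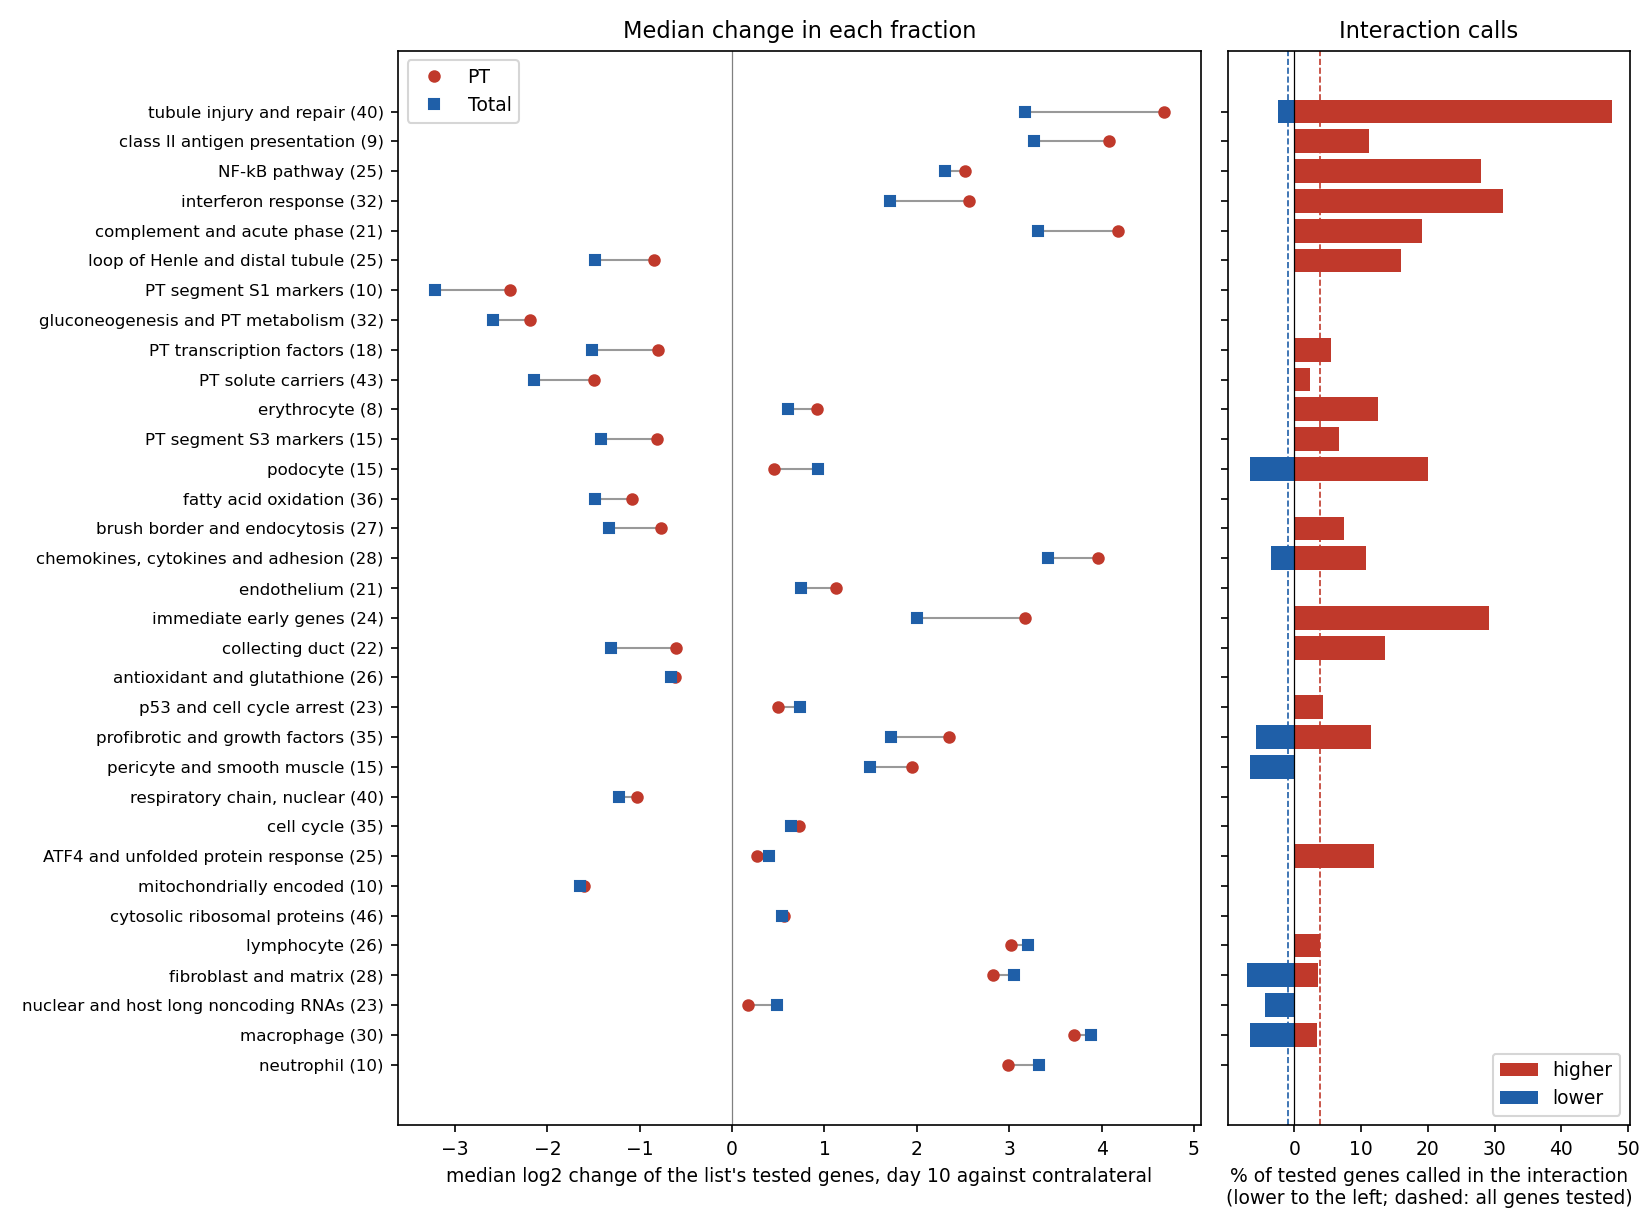
Left, median log2 change from contralateral to day 10 in PT (circles) and in Total (squares) for the tested genes of each of 33 lists, number tested in brackets. Right, percent of each list called higher (right of 0) or lower (left of 0) in the interaction; dashed lines mark the 3.87% and 0.929% of all genes tested.

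The largest lower interactions were mostly those of genes that rose in Total and did not rise in PT. Col12a1, a fibril-associated collagen, held 5.82, 7.06 and 11 CPM in PT of contralateral kidneys and 4.14, 5.92 and 9.38 at day 10, while Total went from 3.04, 4.84 and 7.82 to 58, 66.9 and 168 (-4.25 ± 0.33, edgeR adjusted p = 3.601e-09). The PT sides overlapped, and the fractions overlapped in contralateral kidneys but not at day 10. Gucy1a3 and Gucy1b3, the subunits of the nitric oxide receptor guanylate cyclase, had values of -3.68 ± 0.31 and -3.44 ± 0.38. The first had 4.3, 9.17 and 14.1 CPM against 4.32, 5.81 and 7.69 in PT, and went from 15.6, 17 and 22.3 to 87.6, 120 and 201 in Total. Its PT change was under the 2-fold minimum (-0.76, edgeR adjusted p = 0.0048). The second fell in PT (-1.44) and rose in Total (2.00), with overlap in PT. Arhgap36, a protein that blocks protein kinase A, rose in both fractions, from 0.103, 0.192 and 0.399 to 0.845, 1.75 and 6.46 in PT and from 0, 0.1 and 0.226 to 15.9, 29.1 and 79.6 in Total (-4.47 ± 0.85).

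Some genes moved in opposite directions. Slco2b1, an organic anion transporter, fell in PT from 2.17, 3.72 and 7.06 to 0.622, 0.781 and 1.4 CPM and rose in Total from 3.85, 6.08 and 8.32 to 8.98, 16.7 and 28.9, with no overlap between the sides of either fraction (-3.80 ± 0.37, edgeR adjusted p = 9.474e-08). Plbd1, a phospholipase of myeloid granules, fell in PT from 5.57, 9.9 and 19.8 to 1.57, 2.8 and 4.21 and rose in Total from 6.7, 8.22 and 11.5 to 21.1, 29.4 and 36.6, also without overlap (-3.57 ± 0.32). Col8a1, a short-chain collagen, fell in PT from a median of 11.7 to 5.09 and rose in Total from 9 to 58.1 (-3.71 ± 0.31), with overlap in PT. Crybb1, Ddx4 and Apcdd1 were also called in opposite directions, at medians of 1.01 CPM or less on every side and with overlap in both fractions (-3.98 ± 0.95, -4.04 ± 1.14 and -3.45 ± 0.84). The sign of the Ddx4 change in Total rests on the fit: its Total counts were 64 over the contralateral and 45 over the day 10 libraries, and its mean there went from 0.467 to 0.308 CPM, so that both fractions fell on linear CPM. Its call was lost without female CLK PT 1, female CLK Total 1 or 2, or female D10UUO Total 1, at -4.04 to -3.5.

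The reverse form, a rise in PT with a fall in Total, was small in level. Rab27a, a GTPase of vesicle secretion, went from 0.744, 1.98 and 3.67 to 1.46, 3.64 and 11.3 CPM in PT and from 14.4, 19.2 and 27.9 to 7.06, 8.74 and 18.9 in Total, with overlap in both (2.56 ± 0.52). Syt7, a calcium sensor of exocytosis (2.68 ± 0.48), the fatty acid hydroxylase Fa2h (3.17 ± 0.54), Plcd4, a phospholipase C (2.59 ± 0.48), Tmem151a (2.96 ± 0.48) and Ttc16 (3.31 ± 0.62) stood at medians under 1 CPM in PT at day 10.

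Other lower genes included the cationic amino acid carrier Slc7a2 (-3.95 ± 0.68), the guanine deaminase Gda (-2.77 ± 0.34), the red cell glycophorin Gypc (-2.96 ± 0.47), the adaptor Pstpip1 (-2.78 ± 0.46) and the proton channel Hvcn1 (-2.64 ± 0.45), the last pair best known from leukocytes. At day 10 the fractions did not overlap for any of these 5 genes, and in contralateral kidneys they overlapped for each. Gda and Hvcn1 also moved in opposite directions. They fell in PT (-1.25 and -1.30) and rose in Total (1.52 and 1.34), with overlap in PT.

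Most markers of other cell types were not called in the interaction. The 30 macrophage markers had a summed level of 36.4 to 438 CPM in contralateral PT and 309 to 1020 at day 10, against 170 to 410 and 2440 to 5300 in Total; no marker was at 0 on any side. By medians, PT held 30.7% of the Total level in contralateral kidneys and 13.1% at day 10, but a single gene, Apoe, had a median of 51.9 CPM in contralateral PT. Without it the shares were 12.5% and 9.53%. In the interaction 1 of the 30 was higher and 2 lower, beside 3.87% and 0.929% of all genes, at a median of -0.287. Without the 6 libraries 1 was higher and 1 lower. Csf1r, the receptor of the macrophage growth factor, was one of the lower genes (4.28 to 7 CPM in PT and 13.1 to 52.6 in Total by medians, -1.21 ± 0.27). The lipoprotein gene Apoe (-1.97 ± 0.54) was the other. It reached 420 CPM in 1 contralateral PT library, and its call was lost, at -1.87 to -1.47, without female CLK PT 1, female CLK Total 2 or 3, female D10UUO PT 2 or female D10UUO Total 3. The endotoxin receptor subunit Cd14 was the higher one, from a median of 1.7 to 94.2 in PT and from 3.84 to 64.9 in Total (1.69 ± 0.41), and C1qa was not called (-0.29 ± 0.56, edgeR adjusted p = 0.8766). Under 1 of 19 settings C1qa was called lower, and its values over all alternatives lay between -1.59 and 0.222. Ptprc, the pan-leukocyte antigen CD45, went from medians of 0.465 to 2.5 in PT and from 7.89 to 44.5 in Total. It was not called (0.25 ± 0.30, edgeR adjusted p = 0.7711). On the log2(RPKM + 0.1) and log2(RPKM + 1) scales it was called lower, at -1.52 and -1.36.

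Fibroblast and matrix markers had a summed level of 43.5 to 137 CPM in contralateral PT and 271 to 746 at day 10, against 244 to 477 and 1750 to 4690 in Total, with 1 marker of 29 at 0 in PT. PT held 16.9% of the Total level and then 13.4%, or 12.2% and 6.67% without Sparc, the most abundant of the list in contralateral PT. The interaction was higher for 1 of 28 tested and lower for 2, Col12a1 and the matrix glycoprotein Fbln1 (-2.10 ± 0.49), at a median of -0.215. Of all genes 3.87% were higher and 0.929% lower. Col1a1 was not called (-0.57 ± 0.36, edgeR adjusted p = 0.4481). It was called lower under 2 of 19 settings, with values from -2.68 to -0.327 over all alternatives. Col12a1 kept its call without the 6 libraries and Fbln1 lost it (-1.82). The higher gene was fibronectin, Fn1 (1.00 ± 0.27). It sat on the 2-fold line and lost its call without any 1 of 11 libraries at 0.833 to 0.988. On the log2(RPKM + 1) scale it was called lower, at -1.6. Of pericyte and smooth muscle markers the channel subunit Abcc9 was the called gene of 15 (-2.58 ± 0.56); without the 6 libraries 1 was higher and 1 lower. The part of these cell types in the higher and lower interactions was not tested.

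Markers of other nephron segments were lower in PT than in Total in both states, and the gap narrowed. The loop of Henle and distal tubule sum was 1080 to 1770 CPM in contralateral PT and 564 to 764 at day 10, against 4340 to 9360 and 1200 to 2010 in Total, which took PT from 20.5% to 36.3% of Total. Without Kcnj16, the most abundant of the list in contralateral PT, the shares were 14.6% and 26.6%. The list had 4 higher genes of 25 (median 0.817), beside 3.87% of all genes. Trpm6, described above, had the largest value of the 4 (3.90 ± 0.37). Wnk1, a kinase that regulates salt transport, held 81, 91.2 and 114 against 48.9, 85.2 and 128 CPM in PT and fell in Total from 509, 744 and 1020 to 112, 215 and 314 (1.60 ± 0.26, edgeR adjusted p = 0.0001401). The calcium channel Trpv5 was higher (1.56 ± 0.39), lost its call without female D10UUO PT 2 (1.25), and was at -0.00971 on the log2(RPKM + 1) scale. The prostaglandin receptor Ptger3 was higher (1.63 ± 0.47, edgeR adjusted p = 0.0374), and lost its call without any 1 of 10 libraries at 1.5 to 1.6. Umod was not called (0.88 ± 0.30, edgeR adjusted p = 0.08137). Collecting duct markers went from 22.1% to 36.9% of Total, or from 14.6% to 36.4% without Car12, the most abundant in contralateral PT. Of 22 tested 3 were higher (median 0.375), beside 3.87% of all genes. Among them were the proton pump subunit Atp6v0d2 (1.91 ± 0.30) and its regulator Foxi1 (1.44 ± 0.36), both of which stayed under Total without overlap at day 10. The third was the receptor Kit (2.79 ± 0.80, edgeR adjusted p = 0.03458), with 15 counts over the contralateral PT libraries, whose call was lost without any 1 of 13 libraries at 2.32 to 2.79, and whose value was -0.141 on the log2(RPKM + 1) scale. Of the 22, 1 was called without the 6 libraries, and Foxi1 (1.37) and Kit (2.1) were not. The water channel Aqp2 fell in both fractions and had no settled sign (-0.16 ± 0.68, edgeR adjusted p = 0.9613; -0.486 to 0.57 with single libraries left out). Of 8 erythrocyte genes the carbonic anhydrase Car2, which kidney tubules also express, was the called one. It held 1010, 2260 and 3140 against 1620, 2010 and 3580 CPM in PT and fell in Total from 1440, 1710 and 2070 to 727, 793 and 1330 (1.05 ± 0.25, edgeR adjusted p = 0.00805). Its call was lost, at 0.759, without the 6 libraries, and at 0.94 to 0.982 without female CLK PT 3, female D10UUO PT 2, female D10UUO Total 1 or male CLK PT 2.

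Podocyte markers, at 34.7% of Total and then 41.6%, had 3 higher genes and 1 lower of 15 (median 0.52). Of all genes 3.87% were higher and 0.929% lower. Wt1, a transcription factor of podocytes and of nephron development, went from 1.19, 2.4 and 4.39 to 10.1, 17.8 and 30.3 CPM in PT, and in Total from medians of 5.64 to 13.8, a change of 0.99 (log2) that stood just under the 2-fold minimum (interaction 1.87 ± 0.40). The intermediate filament Nes was higher (1.84 ± 0.43), as was Synpo (1.10 ± 0.25), at 0.997 and not called without female CLK PT 3, while Tcf21, a factor of podocytes and stroma, was lower (-1.49 ± 0.30). None of 21 endothelial markers was called, at a median of 0.472 and 7.66% and then 10.1% of Total, and of 26 lymphocyte markers the T cell kinase Lck was (2.42 ± 0.50). Lck had 12 counts over the contralateral PT libraries and its value was -0.525 on the log2(RPKM + 1) scale.

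Chemokines, cytokines and adhesion molecules had 3 higher genes and 1 lower of 28 (median 0.474), beside 3.87% and 0.929% of all genes. Without the 6 libraries that stand apart the numbers were 2 and 1. Csf1, the macrophage growth factor, went from 0.326, 0.916 and 1.6 to 8.36, 15.8 and 31.7 CPM in PT and from 2.04, 3.36 and 4.45 to 11.2, 17.6 and 22.9 in Total (1.94 ± 0.36, edgeR adjusted p = 0.00075). The membrane-bound chemokine Cx3cl1 was lower, from 3.35, 6.14 and 8.6 to 9.28, 15.1 and 18.2 in PT and from 11.7, 14.1 and 18.2 to 46.3, 91.4 and 104 in Total (-1.25 ± 0.26). The monocyte chemokine Ccl2 rose in both fractions and was not called in the interaction (1.15 ± 0.39, edgeR adjusted p = 0.08511), nor was the neutrophil chemokine Cxcl1 (0.90 ± 0.47, edgeR adjusted p = 0.3233). Il34, the other ligand of the receptor Csf1r, went from 2.97, 35.5 and 137 to 110, 182 and 417 CPM in PT and from 3.35, 20.5 and 54 to 37.2, 71 and 128 in Total, with overlap in both (1.30 ± 0.38, edgeR adjusted p = 0.03679). Its call was lost without any 1 of 15 libraries, at 1.19 to 1.34. Profibrotic and growth factors had 4 higher and 2 lower genes of 35 (median 0.248), beside 3.87% and 0.929% of all genes. Without the 6 libraries 5 of 36 were higher and none lower. The vasoconstrictor endothelin, Edn1, went from 0, 0.206 and 1.04 to 9.7, 29.5 and 60.5 in PT and from 1.13, 1.79 and 2.81 to 25.6, 36.2 and 54.7 in Total (2.20 ± 0.49). Tgfb2 (2.04 ± 0.36) and Igf1 (1.62 ± 0.35) were higher, and both turned sign on the log2(RPKM + 1) scale (-0.27 and -0.794), with medians in PT under those in Total at day 10. Lox, which crosslinks collagen, was lower: it went from 0.0515, 0.128 and 0.475 to 1.09, 1.79 and 2.89 in PT and from 0.793, 1.59 and 3.11 to 27.3, 56.5 and 112 in Total (-1.90 ± 0.55, edgeR adjusted p = 0.03478). Its call was lost without the 6 libraries (-1.41) and without any 1 of 10 libraries, at -1.94 to -1.7.

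Long noncoding RNAs were called in both directions. A130014A01Rik (-1.98 ± 0.40), G530011O06Rik (-2.04 ± 0.48) and Zeb2os (-1.86 ± 0.40) were lower, and Zeb2os fell in PT from 1.28, 1.76 and 2.91 to 0.39, 0.578 and 0.994 CPM. In the list of nuclear and host long noncoding RNAs Snhg20 was the called gene of 23, lower (-1.12 ± 0.32, edgeR adjusted p = 0.03153), and leaving out any 1 of 8 libraries ended its call at -1.13 to -1.0, as did leaving out the 6 that stand apart (-0.904). Among the higher, 9330175E14Rik and Gm14005 each had 1 count and 4930426D05Rik 3 counts over the 7 contralateral PT libraries, so no fold is given; at day 10 their PT medians were 0.949, 1.29 and 0.362 CPM. Snhg20 and A130014A01Rik overlap annotated genes on the same strand alone, and each of the others named here overlaps a gene on the opposite strand. The strand setting of the counting is not given in the sources used here. Reads of these others and of their antisense partners therefore cannot be told apart. The same holds for protein-coding genes with an antisense partner such as Vcam1 with Gm43109 and Slc44a3 with A530020G20Rik.

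Males gave 237 calls (1.42% of genes tested; 195 higher and 42 lower) and females 340 (2.04%; 283 and 57). With PT and Total of the same replicate number compared within a block, the counts were 449 and 707, and without female D10UUO Total 3 the count in females was 213. Of the 646 higher genes 645 had the same sign in both sexes and 516 were at 2-fold or more in both; of the 155 lower genes the numbers were 155 and 126. Since the pooled value averages the sexes, that agreement is partly set by the choice of genes. The difference between the sexes was called for 0 genes by edgeR (278 at an unadjusted p under 0.05) and 0 by DESeq2. The smallest unadjusted p among genes described was that of Atp6v0d2 (0.99 in males and 2.83 in females), at an adjusted p of 1.

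**Figure D5:**
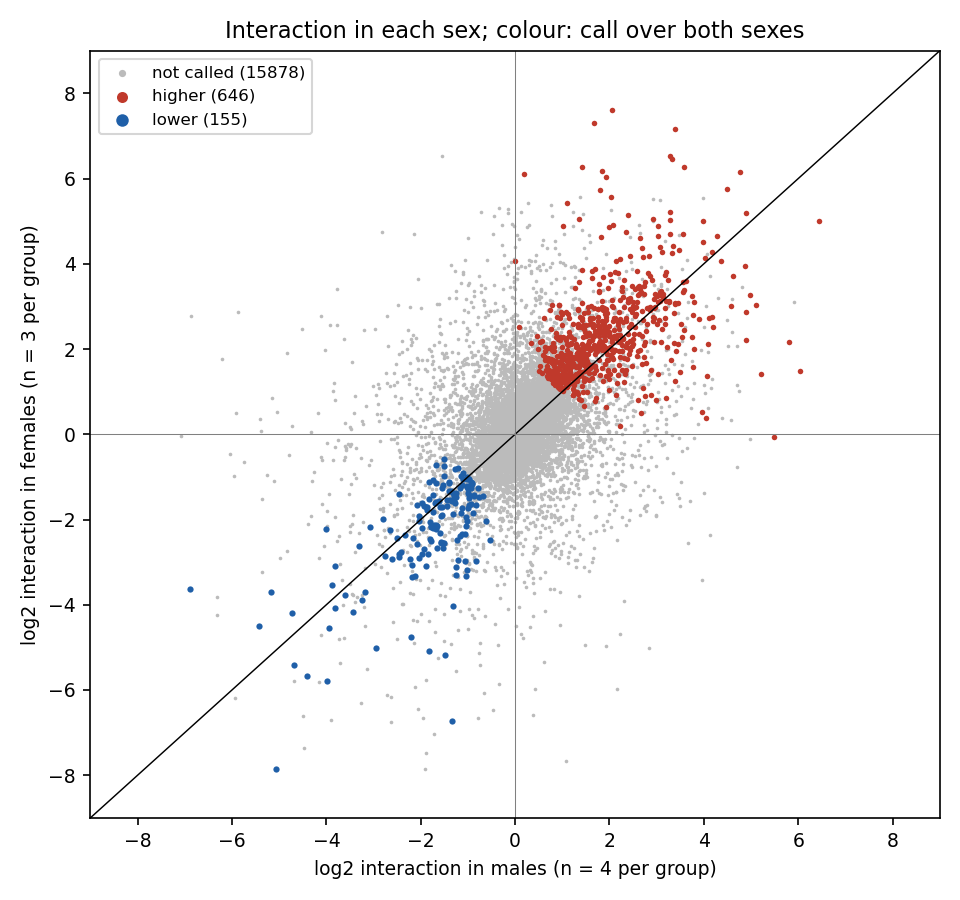
Log2 interaction in males (horizontal, 4 libraries a group) and in females (vertical, 3 a group) for the genes tested; the line marks equal values and colours mark calls over both sexes. Of the called genes, 645 of 646 higher and 155 of 155 lower ones lie on the same side of 0 in both sexes.

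Day 10 was also set against day 5, in a fit of all 42 libraries with 17110 genes tested. The change in PT minus that in Total differed between the days for 4 genes (0.0234%), all higher at day 10, of which 3 are described. Cldn7, a tight junction claudin of distal nephron and collecting duct, had medians of 2.44, 8.11 and 22.3 CPM in PT of contralateral, day 5 and day 10 kidneys and 22.2, 51.9 and 59 in Total (difference 1.53 ± 0.24, edgeR adjusted p = 0.00291). Hk1, a hexokinase, had 3.92, 7.06 and 14.7 in PT and 56.5, 52.8 and 48.6 in Total (1.30 ± 0.24, edgeR adjusted p = 0.0257). Its PT libraries at day 10, from 11 to 22.7, lay above those at day 5, from 5.31 to 8.38. The actin-severing Gsn had 7.98, 10.1 and 22.3 in PT and 46.2, 84.3 and 79 in Total (1.74 ± 0.34, edgeR adjusted p = 0.0408). The day 10 interaction of Gsn itself (1.28 ± 0.39) lost its call without any 1 of 19 libraries. The count of 4 became 20 with the block, 2 without female D10UUO Total 1 and 14 without female D10UUO PT 1.

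The day 5 and day 10 interactions share the contralateral libraries, so their values are set side by side only. At day 5 and day 10 they were 3.94 and 4.13 for Traf1, 4.73 and 5.05 for Rgs4, 4.20 and 4.46 for Rasd2, 3.98 and 4.24 for Slc44a3 and 1.84 and 2.13 for Havcr1. They were -3.23 and -4.25 for Col12a1, -3.95 and -3.68 for Gucy1a3, -4.04 and -3.80 for Slco2b1 and -3.28 and -1.95 for Krt19. For genes of tubule function they were 0.60 and 1.07 for Slc2a2, 0.29 and 1.07 for Alpl, 0.40 and 1.06 for Vil1 and 0.56 and 1.03 for Nr1h4. None of these differences between the days passed the test.

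Of 133 genes recomputed under every setting, 117 were called in the interaction, and 42 of them kept their direction and their call in every other setting tried and with each library left out. The calls of 25 were lost when a single library was left out: 24 are given above, and the other is that of Tnfrsf1b, at 1.82 to 1.96, without female CLK PT 1, female CLK PT 2 or female CLK Total 2.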

How the data were processed

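Counts per gene symbol (40701, of which 13497 were 0 in all 28 libraries) are the authors' deposited raw counts, made with STAR 2.0.4b, Subread and featureCounts 1.4.5 per the submitters' processing notes; the genome build, annotation and strand setting are not given in the sources used here. The deposited RPKM are those counts scaled by library total and gene length, which was checked within a relative deviation of 5e-04. Every column was mapped to its sample by name, and groups come from the labels.

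In R 4.3.3, edgeR 4.0.16 was fitted to the 28 libraries with 1 mean per group, after filterByExpr by group and TMM scaling, as a robust quasi-likelihood model; standard errors are the change over the square root of F. The members and the 33 gene lists were chosen with earlier results of these data known. The genes named are 22 markers; the 12 largest calls each way with 5 CPM in a group, 10 counts on each side and 2-fold in each sex; the 6 largest each way called in opposite directions; up to 4 per list each way; 3 long noncoding RNAs each way; and those called between day 10 and day 5. Of 118 such genes 116 are described and 2 are not reported here, and 17 further list members are named by value; each was recomputed under every alternative. GENCODE M21 gave gene types and overlaps by symbol (39727 matched), and 8 listed symbols that were not matched are not analysed here.

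Numbers were taken as pairing PT with Total within a state, since all 7 pairs correlated above 0.1 in their deviations from the group means (0.293 to 0.456 in contralateral kidneys, 0.195 to 0.689 at day 10), and a block by kidney was fitted as an alternative. The Total library of the same number was the closest for 7 of 7 PT libraries in contralateral kidneys and 4 of 7 at day 10. Others were RLE, upper-quartile and library-size scaling, filters, DESeq2 1.42.0, limma 3.58.1 (voom, and a trend on log2(RPKM + 1) or log2(RPKM + 0.1) with genes kept at a group mean RPKM of at least 0.5), all 42 libraries, a block by number, the Lars2 level and a clock gene score as covariates, other thresholds and each library left out. Leaving out the 6 libraries that stand apart, or a term for them, and marker sums without the most abundant gene were chosen after seeing the data. On simulated counts (16679 genes) the test made 2 false calls. Those counts had no state or fraction effect beyond the planted ones, so the number need not hold for the deposited counts. No 2 of 36 replicate pairs were identical, and the lowest chi-square per degree of freedom between replicates was 27.2.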

Additional observations from a re-analysis of the deposited data

Results flagged for a closer look

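Among 464 groups of 4 male libraries of described genes, 28 held a library that lay far from the other 3 by Dixon's test on CPM; chance flags about 5% of such groups, here 23.2. In male D10UUO Total 3, Ccl2 was at 79.8 CPM (others 47.1 to 49), Cd14 at 99.6 (59.6 to 64.9), Rab27a at 18.9 (8.02 to 8.74) Kit at 12.3 (3.54 to 3.73) and Nes at 14.4 (26.8 to 28.7). This library is one of the 6 that stand apart. In male D10UUO Total 1, Adamts5 was at 52.3 (33.6 to 35.8), Cp at 414 (246 to 265), Gsn at 86.3 (72.5 to 73.6) and Pstpip1 at 9.15 (3.41 to 4.12). Other day 10 libraries apart from the rest were male Total 2 for Atp6v0d2 at 77.4 (56.2 to 57.3) and Car2 at 954 (770 to 793), male PT 1 for Slc7a2 at 1.81 (0.622 to 0.818), male PT 2 for Plcd4 at 1.23 (0.813 to 0.845), male PT 3 for C1s1 at 10.6 (4.96 to 5.23) and Hk1 at 21.5 (10.8 to 12.1), and male PT 4 for Crybb1 at 0.785 (0.0518 to 0.175). In contralateral kidneys they were male PT 2 for Cp at 5.43 (3.91 to 4.07), Trpm6 at 1.27 (0.309 to 0.435) and Krt20 at 3.81 (1.2 to 1.53), male PT 3 for Cx3cl1 at 6.14 (8.18 to 8.6) and Gm14005 at 0.0544 (others 0), male Total 1 for Pstpip1 at 2.63 (1.25 to 1.42), male Total 2 for Car2 at 1440 (1670 to 1710) and Krt20 at 2.67 (0.838 to 1.08), male Total 3 for Plbd1 at 9.17 (6.7 to 6.95) and Trib3 at 0.34 (1.45 to 1.59), and male Total 4 for Gbp2 at 8.36 (2.07 to 2.8) and Runx1 at 3.31 (1.47 to 1.62).

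The effect of obstruction on PT minus Total differed between day 10 and day 5 for Cldn7 (1.53), Gsn (1.74) and Hk1 (1.3, all log2), by the test of that difference.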

How the results depend on the processing

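The interaction count of 801 lay between 686 and 861 with 1 library left out (higher 557 to 712, lower 121 to 166), PT changes between 5155 and 5436, Total changes between 5426 and 5843, males between 187 and 273, females between 213 and 366, the sex difference between 0 and 1 and the day difference between 2 and 14. With PT and Total of 1 replicate number compared in a block by kidney, 1078 genes were called (870 higher and 208 lower), 449 in males, 707 in females and 20 between the days, and no other count moved by over 1.5 times. The block by number within sex gave 533 in females. Across the 2 states, PT libraries of the same number correlated at -0.0954 to 0.388, with 4 of 7 above 0.1. Total libraries of the same number correlated at 0.155 to 0.373, with 7 of 7 above 0.1. At an adjusted p under 0.01 the counts were 485 in all, 403 higher, 82 lower, 132 in males, 160 in females and 2 between the days. On log2(RPKM + 1) they were 221 higher, 629 lower, 702 in males, 841 in females, 2045 for PT, 2890 for Total and 11 between the days. On log2(RPKM + 0.1) they were 1405 in all, 895 lower, 775 in males, 778 in females, 2 for the sex difference and 12 between the days. DESeq2 called 246 lower and limma-voom 305. All 42 libraries gave 367 in males and 1 sex difference, the filter of 5 CPM gave 3528 for Total, and no fold minimum gave 8937 for PT and 9297 for Total. Without the 6 libraries that stand apart there were 1 sex difference and 9 day differences, and a term for them gave 12 of the latter. RLE scaling made 73.9% of called genes higher and library size alone 84%, against 80.6%; library size alone took the median interaction of all genes from 0.164 to 0.214.

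Values changed sign on log2(RPKM + 1) for C1s1 (-0.254), Cd40 (-0.108), Fn1 (-1.6), Fos (-0.0568), Gm14005 (-0.596), Igf1 (-0.794), Kit (-0.141), Lbp (-0.367), Lck (-0.525), Nfkbiz (-0.491), Oasl2 (-0.225), Ptprc (-1.36), Runx1 (-0.334), Tgfb2 (-0.27), Tnfrsf1b (-0.721) and Trpv5 (-0.00971), on log2(RPKM + 0.1) for Fn1 (-0.538), Gm14005 (-0.23), Ptprc (-1.52) and Tnfrsf1b (-0.052), and without the 6 libraries for C1qa (0.222). Aqp2, uncalled throughout, was above 0 with the block by kidney (0.2) or by number (0.0601), the clock score (0.0974), limma-voom (0.323), log2(RPKM + 0.1) (0.528), log2(RPKM + 1) (0.835) and without the 6 libraries (0.399), and lay between -0.486 and 0.57 with 1 library left out. Cdkn1a lay between -0.00743 and 0.577. Adding a constant shrinks the change of low genes by construction; the cause of the other shifts was not tested. Of 117 called genes described, 75 lost their call or changed sign under at least 1 setting. Calls were also gained by uncalled genes: Slc34a1, Lrp2, Slc22a6 and Ccl2 under 1 of 19 settings each. Ptprc, above 0 and uncalled in the main fit, was called lower on log2(RPKM + 0.1) and log2(RPKM + 1). Fn1, called higher in the main fit, was called lower on log2(RPKM + 1). With single libraries left out, Ccl2 gained a call in 4 fits, and Slc22a6 and Umod in 1 each. Depth limits genes under 10 counts on a side: 74 of the 646 higher and 8 of the 155 lower genes.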
